A study of Homo sapiens with 18 samples.

Results

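Transcripts of 10 genes that control how RNA polymerase II leaves its paused state were followed in OVCAR-3 cells, an established high-grade serous ovarian carcinoma line, after bromodomain inhibition. They are the genes of the subunits AFF1, AFF4, ELL, ELL2, MLLT1 and MLLT3 of the super elongation complex and the pausing factors NELFA, NELFE, SUPT5H and SUPT4H1. Their rows were found by matching the gene identifiers of the count tables to symbols, which gave 10 of the 58825 genes listed. OVCAR-3 cells in stripped medium received 1 µM i-BET858, 1 µM i-BET151 or the solvent DMSO alone, and RNA was taken after 4 or 24 h. These 6 groups held 3 replicates each, 18 libraries in all. Both compounds are inhibitors of the BET proteins and are known here by code name, and the labels set the groups apart by compound and time only. A single cell line stood for the tumour type, so the replicates measure repeat cultures and not different tumours.

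BET proteins read acetylated histones and help bring the kinase P-TEFb to promoters. A polymerase that has just started is held a short way into the gene by NELF and DSIF (SUPT5H with SUPT4H1). P-TEFb phosphorylates NELF, DSIF and the polymerase tail, NELF leaves, DSIF turns into a positive factor and elongation begins. The super elongation complex carries P-TEFb on a scaffold, either AFF1 or AFF4, together with an ELL protein that speeds the polymerase and a YEATS-domain reader of acylated histones, MLLT1 (ENL) or MLLT3 (AF9). AFF1, MLLT1 and MLLT3 are also known as partners in MLL fusions of leukaemia. P-TEFb can instead be stored in an inactive form by HEXIM1 and 7SK RNA.

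For 5 of the genes whose transcripts moved with an inhibitor or that form a pair of alternative subunits, the 250 bases before the annotated start are shown, since this is the DNA next to which these factors act. The sequences are RefSeq's on GRCh38.p14, written 5′ to 3′ along the gene's strand, and for AFF1 the window is that of the upstream of its 2 annotated starts. Capitals mark any of 7 motifs, searched on both strands: the TATA box in the form TATAAA, the GC box GGGCGG, the CAAT box CCAAT, the E-box CACGTG, the ETS core CGGAAG, the YY1 motif AAGATGGCG and the cAMP response element TGACGTCA.
AFF1, chr4:86934761-86935010, plus strand: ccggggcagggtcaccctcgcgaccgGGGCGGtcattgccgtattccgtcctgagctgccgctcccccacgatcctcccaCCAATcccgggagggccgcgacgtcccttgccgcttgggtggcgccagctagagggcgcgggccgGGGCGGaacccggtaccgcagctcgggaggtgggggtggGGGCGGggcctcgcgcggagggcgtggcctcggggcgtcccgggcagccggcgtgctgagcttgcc
AFF4, chr5:132963635-132963884, minus strand: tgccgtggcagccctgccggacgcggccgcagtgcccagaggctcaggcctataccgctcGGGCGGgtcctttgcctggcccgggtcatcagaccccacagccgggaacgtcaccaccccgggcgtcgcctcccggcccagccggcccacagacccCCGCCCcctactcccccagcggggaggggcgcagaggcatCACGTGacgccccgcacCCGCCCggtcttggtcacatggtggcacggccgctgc
MLLT1, chr19:6279976-6280225, minus strand: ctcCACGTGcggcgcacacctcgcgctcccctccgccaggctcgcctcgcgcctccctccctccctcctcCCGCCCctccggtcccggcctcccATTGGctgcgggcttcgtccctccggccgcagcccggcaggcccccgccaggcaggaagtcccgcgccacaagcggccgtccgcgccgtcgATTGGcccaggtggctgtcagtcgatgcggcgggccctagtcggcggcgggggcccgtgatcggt
MLLT3, chr9:20622500-20622749, minus strand: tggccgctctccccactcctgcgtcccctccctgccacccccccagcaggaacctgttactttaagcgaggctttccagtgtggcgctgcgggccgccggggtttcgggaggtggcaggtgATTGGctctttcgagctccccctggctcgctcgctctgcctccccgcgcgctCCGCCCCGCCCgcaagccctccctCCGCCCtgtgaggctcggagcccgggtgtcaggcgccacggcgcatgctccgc
NELFA, chr4:2008975-2009224, minus strand: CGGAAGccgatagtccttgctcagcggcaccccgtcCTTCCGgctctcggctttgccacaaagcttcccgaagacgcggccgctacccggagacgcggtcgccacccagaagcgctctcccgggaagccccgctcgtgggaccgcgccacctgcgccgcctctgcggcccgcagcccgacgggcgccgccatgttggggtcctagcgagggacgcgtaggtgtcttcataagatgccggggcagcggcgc

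Windows of 300 bases, from 250 before to 50 after the start, were found for 9 of the 10 genes (11 windows). The GC box was in the windows of 8 of these 9 genes, and NELFA was the exception, whereas 45.0% of all 35116 windows of the same length held it. CCAAT was found in AFF1, MLLT1 and MLLT3 (34.6% of all windows), CACGTG in AFF4 and MLLT1 (7.26%), and CGGAAG in NELFA, NELFE and SUPT4H1 (19.5%), where in NELFE it overlaps the GC box. AAGATGGCG lay in ELL and NELFA, beginning 13 bases into the transcript in each, and in SUPT5H before the start, against 1.75% of all windows. TATAAA (11.5% of all windows) and TGACGTCA (1.85%) were in none of the members' windows. GC content was 61.7 to 77.7% in the 11 windows, and the median of all windows was 58.7%. A match of letters is not evidence that a factor binds.

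The libraries held 27323969 to 46299994 counts (median 32267434). Where a library has a count of 0, up to 3 counts remain possible, or 0.0648 to 0.110 CPM (counts relative to the library's size, for this limit the unscaled total), for counting error only. Of 12 markers of serous ovarian epithelium, 11 had a median of at least 1 CPM (PAX8 483 CPM), and ESR1 did not (0.327 CPM). Fibroblast, leukocyte and endothelial markers, 15 genes in all, summed to at most 49.95, 3.25 and 15.7 CPM in any library, and COL3A1, LUM, DCN, CD3E and CD68 had medians of 0. A median of at least 1 CPM was reached by 1 of 6 fibroblast, 0 of 5 leukocyte and 2 of 4 endothelial genes. These were COL1A1 (28.1 CPM, above the serous marker FOLR1 at 21.5 CPM), VWF (2.87 CPM) and KDR (1.43 CPM). The replicate 3 libraries stood apart in every group, with 17817 to 20642 genes detected against 23674 to 24947 in the other libraries, so counts are also given for replicates 1 and 2 alone. HEXIM1, whose rise is a known sign of BET inhibition, rose with i-BET858 by 1.87 ± 0.12 (log2 fold change ± SE) at 4 h and by 1.76 ± 0.12 at 24 h, and with i-BET151 by 1.25 ± 0.12 and 1.12 ± 0.12.

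Of the 10 genes, 9 had counts in all 18 libraries and passed the filter on low counts. Levels of different genes are compared as CPM per kilobase of exon. In the 4 h DMSO libraries SUPT5H stood far above the others at 195 ± 1.70 CPM per kilobase (mean ± SD, n = 3). NELFE followed at 30.4 ± 4.69, MLLT1 at 19.1 ± 2.17, AFF4 at 11.5 ± 2.34 and NELFA at 9.80 ± 0.684. The lowest were ELL at 3.23 ± 0.505, AFF1 at 2.91 ± 0.335, ELL2 at 2.90 ± 0.0981 and MLLT3 at 1.62 ± 0.371 CPM per kilobase. AFF4 and NELFA did not differ beyond their spread, nor did ELL, AFF1 and ELL2. In each pair of alternative subunits, then, AFF4 and MLLT1 were the more abundant transcripts, while ELL and ELL2 were alike. Over all 18 libraries SUPT5H ranked 161 of the 13931 genes with a mean of at least 1 CPM, and MLLT3 ranked 8737.

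SUPT4H1, the small subunit of DSIF (chr17:58345175-58353093), was the gene that could not be measured. A single count was listed for it in 1 of 18 libraries, DMSO at 4 h, replicate 1, and the other 17 libraries held 0. Its exons span 2079 bases, of which 63.7% are shared with another gene model on the same strand (ENSG00000285897, median count 0) and 27.8% with the lncRNA TSPOAP1-AS1 on the opposite strand, in GENCODE 44. STAR's gene counting gives a read that falls on more than 1 gene to neither. The part of this overlap in the near absence of counts was not tested, and nothing can be said of SUPT4H1 transcripts from these tables. Of the other members, ELL shares 9.62% of its exon length with a lncRNA on the opposite strand (median count 1), and NELFA and NELFE contain the miRNA genes MIR943 and MIR1236 (median count 0).

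Which of these genes respond to BET inhibition was asked by comparing each inhibitor with DMSO at the same time (edgeR quasi-likelihood test, Benjamini-Hochberg adjusted p under 0.05, over all genes tested). With i-BET858, 4 of the 9 genes passed at 4 h, AFF1 and ELL2 up and MLLT1 and NELFA down, where 30.8% of all genes tested passed. With i-BET151, 3 of 9 passed at 4 h, AFF1 and ELL2 up and NELFA down, against 16.2% of all genes. At 24 h, 6 of 9 passed with i-BET858, with AFF1, AFF4, ELL2, MLLT3 and SUPT5H up and NELFA down, against 41.7% of all genes. The 5 that passed with i-BET151 at 24 h were AFF1, AFF4, ELL2, MLLT3 and SUPT5H, all up, against 33.8% of all genes. A change of at least 2-fold was reached by 2, 1, 3 and 3 of them in the same order, where 14.1, 7.10, 18.8 and 13.7% of all genes did so. Shares of 9 genes this close to the background are not a result about the genes as a group. The median log2 fold change over the 9 was 0.31, −0.01, 0.52 and 0.30, with the median of all genes tested between −0.01 and 0.02. In replicates 1 and 2 alone 5, 4, 7 and 6 were called, where 41.9, 25.9, 60.7 and 54.2% of all genes were. With the replicate number as a block 6, 6, 7 and 5 were called, where the shares of all genes were 45.4, 32.7, 52.0 and 45.9%. Both inhibitors were compared with the same DMSO libraries, so their values are not independent of each other. In these bulk samples fewer cells that express a gene and less RNA per cell cannot be told apart.

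**Figure D1:**
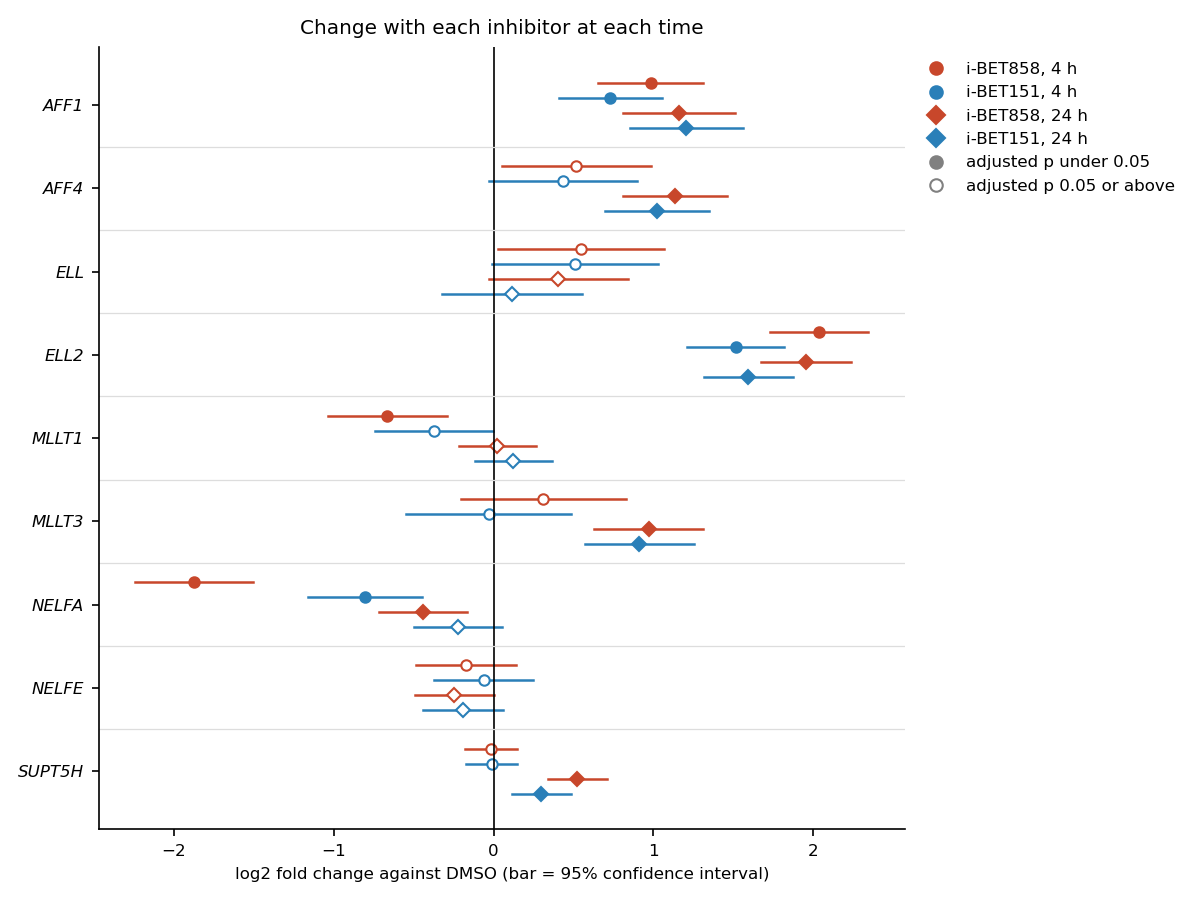
Log2 fold change of each gene against DMSO (horizontal axis) with its 95% confidence interval, in red for i-BET858 and blue for i-BET151, circles for 4 h and diamonds for 24 h, filled where the adjusted p was under 0.05. ELL2 lies at 1.51 to 2.04 in all 4 comparisons, and NELFA lies farthest to the left at 4 h with i-BET858, at −1.87.

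AFF1 (chr4:86935002-87141039), a scaffold that holds P-TEFb in the complex, rose with both compounds at both times. At 4 h its DMSO libraries held 27.6, 33.3 and 34.5 CPM (replicates 1, 2 and 3), those with i-BET151 51.7, 52.7 and 54.1 CPM and those with i-BET858 52.1, 73.5 and 63.0 CPM. At 24 h it was at 32.5, 32.9 and 22.9 CPM with DMSO, 58.9, 69.7 and 74.9 CPM with i-BET151 and 72.2, 57.2 and 67.7 CPM with i-BET858. Every treated library thus lay above every DMSO library of its time. At 4 h the log2 fold changes came to 0.98 ± 0.15 (SE) for i-BET858 and 0.73 ± 0.15 for i-BET151 (adjusted p = 4.70e-04 and 0.00648). They were 1.16 ± 0.16 and 1.21 ± 0.16 at 24 h (adjusted p = 2.02e-04 and 2.48e-04).

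AFF4 (chr5:132875395-132963634), the other scaffold, rose at 24 h. DMSO libraries were close together at 24 h, with 99.8, 95.1 and 102 CPM, and the inhibitors brought the gene to 169.8, 196 and 237 CPM (i-BET151) and 220.5, 179.8 and 252 CPM (i-BET858). The groups did not overlap, and the log2 fold changes were 1.13 ± 0.15 for i-BET858 and 1.02 ± 0.15 for i-BET151, about 2-fold (adjusted p = 1.43e-04 and 4.27e-04). At 4 h the DMSO libraries ranged from 108 to 159 CPM, and the highest of them overlapped the treated libraries, which held 159, 141 and 228 CPM with i-BET151 and 146, 191 and 222 CPM with i-BET858. The log2 fold changes at 4 h, 0.52 ± 0.21 and 0.43 ± 0.21, did not pass (adjusted p = 0.0884 for i-BET858 and 0.200 for i-BET151). Replicate 3 was the highest in every group at 4 h, and each treated library was above the DMSO library of its own number. With the replicate number as a block, the 4 h differences passed, with adjusted p = 9.72e-04 and 0.00696, and that of i-BET858 also passed without DMSO replicate 3, i-BET858 replicate 1 or i-BET151 replicate 3 (adjusted p from 0.0415 to 0.0470). Without a filter on low counts both passed (0.00446 and 0.0335). That of i-BET858 passed as well in replicates 1 and 2 alone (0.00865) and in 1 fit of all 18 libraries (0.0489). With all libraries or replicates 1 and 2, 5 of 9 alternatives left i-BET858 not passing and 7 of 9 i-BET151.

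**Figure D2:**
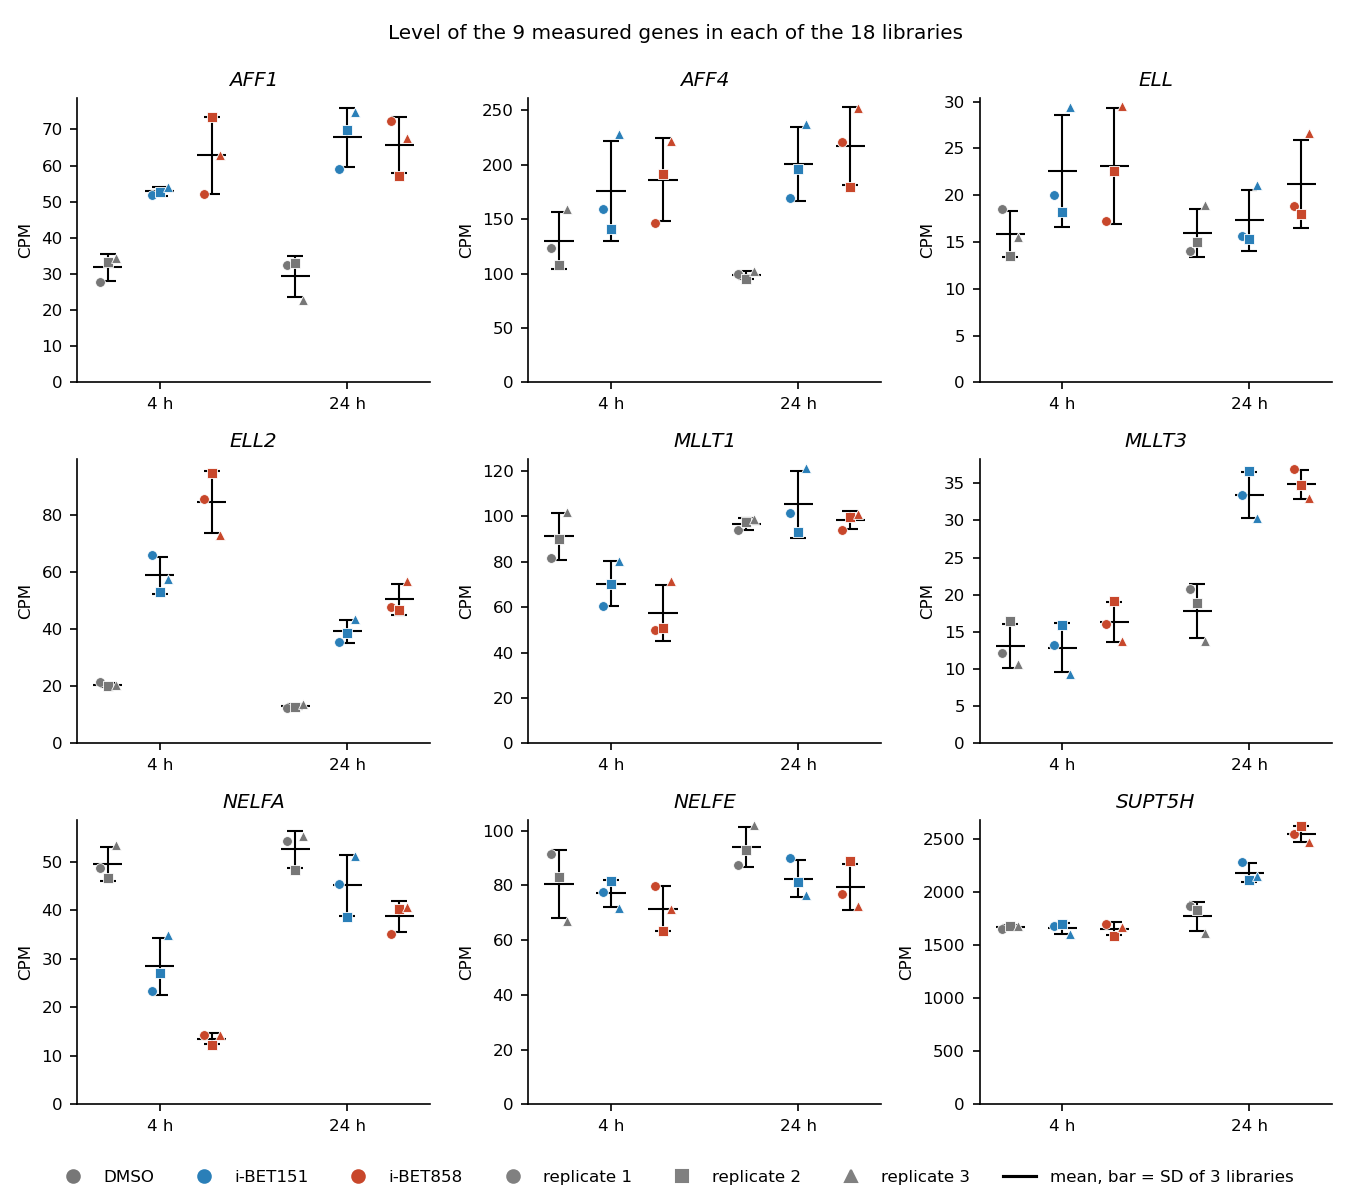
CPM of the 9 measured genes (vertical axes, each starting at 0) in each library at 4 h and 24 h, DMSO grey, i-BET151 blue and i-BET858 red, with a marker shape for each replicate and the mean ± SD of 3 libraries in black. The treated ELL2 libraries sit between 35.6 and 94.8 CPM, all above the DMSO libraries, and the NELFA libraries with i-BET858 at 4 h lie between 12.2 and 14.2 CPM.

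ELL2 (chr5:95885098-95961851), an elongation factor that keeps the polymerase from pausing along the gene, had the largest rise of the 9 genes in each of the 4 comparisons. At 4 h it went from 21.4, 19.98 and 20.5 CPM with DMSO to 65.8, 53.0 and 57.7 CPM with i-BET151 and 85.7, 94.8 and 73.0 CPM with i-BET858. At 24 h the DMSO libraries held 12.3, 12.9 and 13.9 CPM, those with i-BET151 35.6, 38.6 and 43.6 CPM and those with i-BET858 47.9, 46.8 and 56.7 CPM. The 3 treatments were thus ordered the same way at both times, with no overlap between any of them. The rise over DMSO was 4.10-fold with i-BET858 and 2.85-fold with i-BET151 at 4 h, log2 fold changes of 2.04 ± 0.14 and 1.51 ± 0.14 (adjusted p = 2.56e-06 and 4.64e-05). At 24 h it was 3.87-fold and 3.02-fold, or 1.95 ± 0.13 and 1.59 ± 0.13 (adjusted p = 1.56e-06 and 9.61e-06). Between the DMSO groups ELL2 was lower at 24 h than at 4 h by 0.74 ± 0.13 on the log2 scale (a log2 difference of −0.74, adjusted p = 0.0457, in a fit of all 18 libraries). This was the only 1 of the 9 genes called over time in DMSO, where 0.0386% of all genes were (0.00551% with at least 2-fold), and the call was lost when any of 15 libraries was left out (adjusted p from 0.0509 to 0.265). It was kept without replicate 3 of i-BET858 at 4 h or of either inhibitor at 24 h.

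The genes whose 6 group means followed those of ELL2 most closely were KBTBD8, FRMD6 and GALNT18, out of 12429 genes compared. Their centred log2 values differed from those of ELL2 by 0.105, 0.110 and 0.112 (root mean square over the 6 groups). At 4 h KBTBD8 had log2 fold changes of 2.17 for i-BET858 and 1.64 for i-BET151, close to the values of ELL2. This closeness follows from how the genes were picked, since the fold changes rest on the same groups.

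ELL (chr19:18442663-18522116), its paralogue, did not pass in any comparison of the fit without a replicate block. With DMSO it was at 18.5, 13.5 and 15.6 CPM at 4 h, with i-BET151 at 20.05, 18.2 and 29.4 CPM and with i-BET858 at 17.2, 22.6 and 29.6 CPM. The groups overlapped, and replicate 3 was the highest of both treated groups. Log2 fold changes at 4 h came to 0.55 ± 0.24 for i-BET858 and 0.51 ± 0.24 for i-BET151 (adjusted p = 0.105 and 0.175). At 24 h they were 0.40 ± 0.20 and 0.11 ± 0.20 (adjusted p = 0.126 and 0.700). A blocked fit by replicate number called ELL with both compounds at 4 h (adjusted p = 0.0232 and 0.0470) and with i-BET858 at 24 h (0.00761). With i-BET858 ELL also passed at 4 h without a filter on low counts (0.0487) and at 24 h in replicates 1 and 2 alone (0.0132). Without i-BET858 replicate 1 the 4 h value of that compound was at an adjusted p of 0.0499.

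The 2 YEATS readers were called at different times and in different directions. Tested as drug-by-time interactions, the change of effect passed for MLLT1 with i-BET858 and for MLLT3 with i-BET151 (the latter lost when any of 9 libraries was left out), and did not pass for MLLT3 with i-BET858 (0.70 ± 0.29, adjusted p = 0.0851) or MLLT1 with i-BET151 (0.52 ± 0.20, adjusted p = 0.1001). With the replicate block these 2 passed as well (adjusted p = 0.00499 for MLLT3 with i-BET858 and 0.0109 for MLLT1 with i-BET151). MLLT3 with i-BET858 also passed without a filter on low counts (0.0488) and in replicates 1 and 2 alone (0.0497). MLLT1 (chr19:6210381-6279975) fell at 4 h with i-BET858, from 81.6, 89.9 and 102 CPM with DMSO to 49.9, 51.1 and 71.6 CPM, with i-BET151 between them at 60.5, 70.2 and 80.3 CPM. Neither treated group overlapped DMSO. The fall amounted to a log2 fold change of −0.66 ± 0.17 for i-BET858 (adjusted p = 0.0112, 1.58-fold lower) and −0.37 ± 0.17 with i-BET151 (adjusted p = 0.164, and 0.00625 with the replicate block). By 24 h MLLT1 was at 94.0, 97.3 and 98.8 CPM with DMSO and at 93.9, 99.8 and 101 CPM with i-BET858, a log2 fold change of 0.02 ± 0.11 whose 95% confidence interval ran from −0.22 to 0.26. The i-BET151 libraries at 24 h held 101, 93.1 and 121 CPM (0.12 ± 0.11, adjusted p = 0.428).

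MLLT3 (chr9:20341669-20622499) rose at 24 h with both compounds. Its DMSO libraries held 20.7, 18.9 and 13.7 CPM, those with i-BET151 33.4, 36.6 and 30.4 CPM and those with i-BET858 36.9, 34.7 and 33.0 CPM, with no overlap. These are log2 fold changes of 0.97 ± 0.15 for i-BET858 and 0.91 ± 0.15 for i-BET151 (adjusted p = 5.17e-04 and 0.00112), a little under 2-fold. At 4 h the 9 libraries lay between 9.39 and 19.1 CPM in overlapping groups, and the log2 fold changes of 0.31 ± 0.23 and −0.03 ± 0.24 did not pass (adjusted p = 0.354 and 0.954).

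Because the genes followed here include 2 alternatives for each of these positions, the ratio of these paralogues was taken within each library, per kilobase, as a description without a test. Other genes of the same families, such as AFF2 and AFF3, were not part of these ratios. ELL2 to ELL was 0.910 ± 0.111 (SD, n = 3) with DMSO at 4 h, 1.88 ± 0.472 with i-BET151 and 2.68 ± 0.886 with i-BET858. At 24 h this ratio was 0.569 ± 0.0519, 1.59 ± 0.158 and 1.68 ± 0.174 in the same order. The libraries of the 2 compounds overlapped in this ratio at both times. Per kilobase, ELL2 was above ELL in all 12 treated libraries and in 1 of the 6 DMSO libraries. MLLT3 stayed the minor reader throughout, at 0.0859 ± 0.0231 of MLLT1 with DMSO, 0.111 ± 0.0364 with i-BET151 and 0.174 ± 0.0555 with i-BET858 at 4 h, where DMSO and i-BET151 overlapped. At 24 h it was at 0.109 ± 0.0246 of MLLT1 with DMSO, 0.191 ± 0.0423 with i-BET151 and 0.210 ± 0.0201 with i-BET858. In this ratio, too, the 2 compounds overlapped at 4 h and at 24 h. The ratio of AFF1 to AFF4 had means from 0.257 to 0.352 over the 6 groups, and the groups overlapped. Within each replicate number it was lowest with DMSO and highest with i-BET858 at 4 h (0.231, 0.335 and 0.367 in replicate 1 with DMSO, i-BET151 and i-BET858, then 0.318, 0.385 and 0.396 in replicate 2 and 0.223, 0.244 and 0.292 in replicate 3). At 24 h it was higher with i-BET151 than with DMSO in 3 of 3 replicate numbers and higher with i-BET858 in 2 of 3. In all 3 ratios replicate 3 was the lowest library of every group, with the exception of ELL2 to ELL with DMSO at 4 h.

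**Figure D3:**
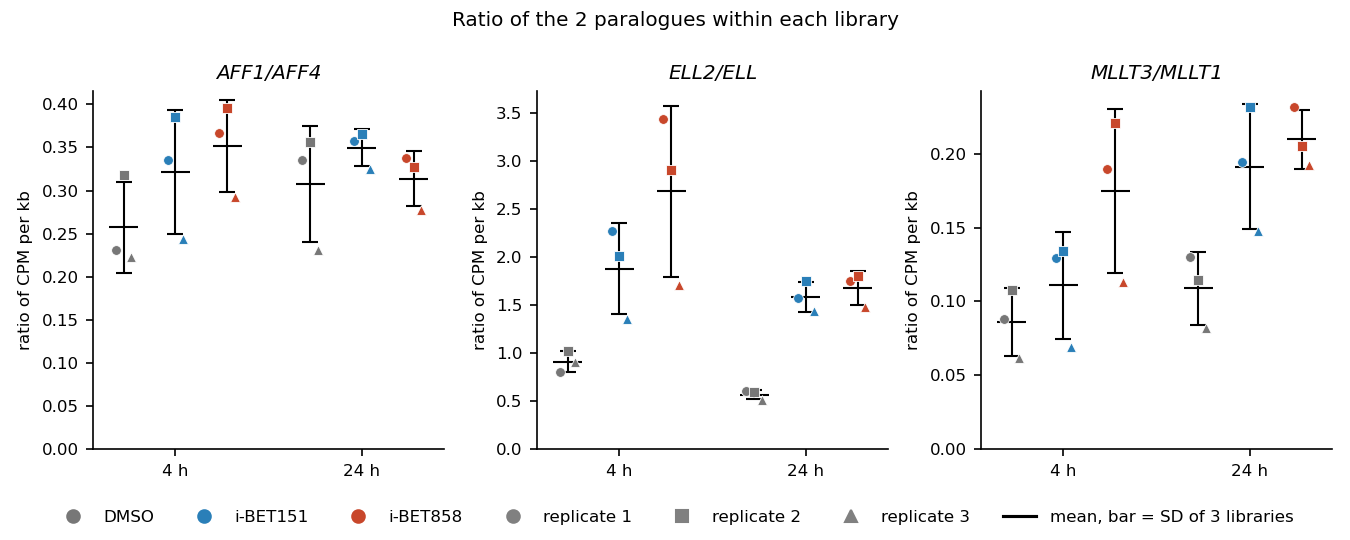
Ratio of the CPM per kilobase of 2 paralogues within each library (vertical axes, each starting at 0) at 4 h and 24 h, DMSO grey, i-BET151 blue and i-BET858 red, with the mean ± SD of 3 libraries in black. ELL2 to ELL lies between 0.509 and 1.02 in the DMSO libraries and between 1.36 and 3.44 in the treated ones, whereas the AFF1 to AFF4 ratios overlap.

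NELFA (chr4:1982717-2041903), the NELF subunit that contacts the polymerase, fell more than any other of the 9 genes at 4 h. There it was at 48.6, 46.7 and 53.4 CPM with DMSO, 23.3, 27.1 and 34.9 CPM with i-BET151 and 14.2, 12.2 and 14.2 CPM with i-BET858. No library of 1 treatment overlapped another, and DMSO, i-BET151 and i-BET858 followed in that order. The fall was 3.66-fold with i-BET858, a log2 fold change of −1.87 ± 0.17 (adjusted p = 1.39e-05), and 1.74-fold with i-BET151, −0.80 ± 0.16 (adjusted p = 0.00644). At 24 h the differences from DMSO were smaller, and the change of effect between the times passed for i-BET858 but not for i-BET151 (0.60 ± 0.20, adjusted p = 0.0533). DMSO libraries held 54.3, 48.2 and 55.2 CPM, those with i-BET151 45.4, 38.6 and 51.3 CPM and those with i-BET858 35.1, 40.3 and 40.7 CPM. With i-BET858 the log2 fold change was −0.44 ± 0.12 (adjusted p = 0.0148, and 0.0683 without i-BET858 replicate 1), and with i-BET151 it was −0.22 ± 0.12 (adjusted p = 0.202, and 0.0251 at −0.31 in replicates 1 and 2 alone).

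NELFE (chr6:31952087-31959038), the NELF subunit that binds RNA, did not pass in any comparison. It lay between 63.4 and 91.4 CPM in the 9 libraries of 4 h and between 72.4 and 102 CPM in those of 24 h, with overlapping groups. Its largest log2 fold change was −0.25 ± 0.11, with i-BET858 at 24 h (adjusted p = 0.106, 95% confidence interval −0.49 to 0.00296), which passed with total library size as the scaling (adjusted p = 0.0424). Of the other 2 NELF subunits, NELFB did not pass. With i-BET858 it held 126 to 142 CPM at 4 h against 149 to 165 CPM with DMSO, without overlap (−0.23 ± 0.10, adjusted p = 0.115, and 0.0316 with the replicate block), and at 24 h it was at 0.04 ± 0.09. NELFCD fell at 24 h by 0.79 ± 0.09 on the log2 scale with i-BET858 (adjusted p = 4.43e-05) and by 0.56 ± 0.09 with i-BET151 (adjusted p = 5.89e-04). At 4 h the log2 fold changes of NELFCD were −0.13 ± 0.15 and −0.25 ± 0.15 and did not pass. The effect of i-BET858 on NELFCD was lower at 24 h than at 4 h by the drug-by-time interaction (−0.61 ± 0.17, adjusted p = 0.0101), and that of i-BET151 did not pass (−0.30 ± 0.17, adjusted p = 0.268).

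SUPT5H (chr19:39436156-39476670), the large subunit of DSIF, rose at 24 h. All 9 libraries of 4 h held 1585 to 1704 CPM, and the log2 fold changes there came to −0.02 ± 0.07 for i-BET858 and −0.01 ± 0.07 for i-BET151, with 95% confidence intervals within −0.18 to 0.15. At 24 h DMSO libraries held 1873, 1832 and 1617 CPM, those with i-BET151 2282, 2113 and 2151 CPM and those with i-BET858 2551, 2627 and 2470.4 CPM. The 3 treatments did not overlap. The rise was 1.44-fold with i-BET858, 0.52 ± 0.08 on the log2 scale (adjusted p = 5.53e-04), and 1.23-fold with i-BET151, 0.30 ± 0.08 (adjusted p = 0.0183). The smaller call was lost without a filter on low counts (adjusted p = 0.0724), with total library size as the scaling (0.0573) and without i-BET151 replicate 1 (0.0812).

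To ask whether the compounds differ, i-BET858 was compared directly with i-BET151 at the same dose and time, 1 pair of compounds in 9 genes at 2 times, with p-values adjusted over all genes tested. NELFA at 4 h was the 1 of 9 genes called, with 0.971% of all genes called. It was lower with i-BET858, by a log2 difference of −1.07 ± 0.17 (2.10-fold, adjusted p = 0.0237, lower in 9 of 9 pairs of libraries). The size of the difference held between −1.20 and −0.90 with any of the treated libraries left out, but the call did not, with adjusted p between 0.0512 and 0.122 without i-BET858 replicate 1, 2 or 3 or i-BET151 replicate 1 or 2, and 0.0855 with only the 2 groups in the fit. In those fits between 0 and 2 genes were called out of all tested. ELL2 was higher with i-BET858 in 9 of 9 pairs of libraries at each time, by 0.52 ± 0.13 at 4 h and 0.36 ± 0.12 at 24 h, but did not pass (adjusted p = 0.0986 and 0.269). With the replicate block ELL2 passed at both times (adjusted p = 0.00879 and 0.0428), and with DESeq2 at 4 h (0.00964). At 24 h 0 of the 9 were called with edgeR, with 0.210% of all genes called, and 0 with DESeq2, with 3.14%, and 2 (ELL2 and SUPT5H) had an unadjusted p under 0.05. SUPT5H was 0.22 ± 0.08 higher with i-BET858 in 9 of 9 pairs (adjusted p = 0.321).

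For the remaining genes the 95% confidence intervals of the log2 difference between the compounds show what could have been missed. At 4 h AFF1 ran from −0.07 to 0.57, AFF4 from −0.38 to 0.55, ELL from −0.48 to 0.55, MLLT1 from −0.66 to 0.08, MLLT3 from −0.17 to 0.86 and NELFE from −0.42 to 0.20. SUPT5H at 4 h had the narrowest, from −0.17 to 0.16. At 24 h the intervals were −0.39 to 0.30 for AFF1, −0.21 to 0.43 for AFF4, −0.14 to 0.72 for ELL, −0.34 to 0.14 for MLLT1, −0.27 to 0.39 for MLLT3, −0.50 to 0.05 for NELFA and −0.30 to 0.19 for NELFE. All of these include 0.

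**Figure D4:**
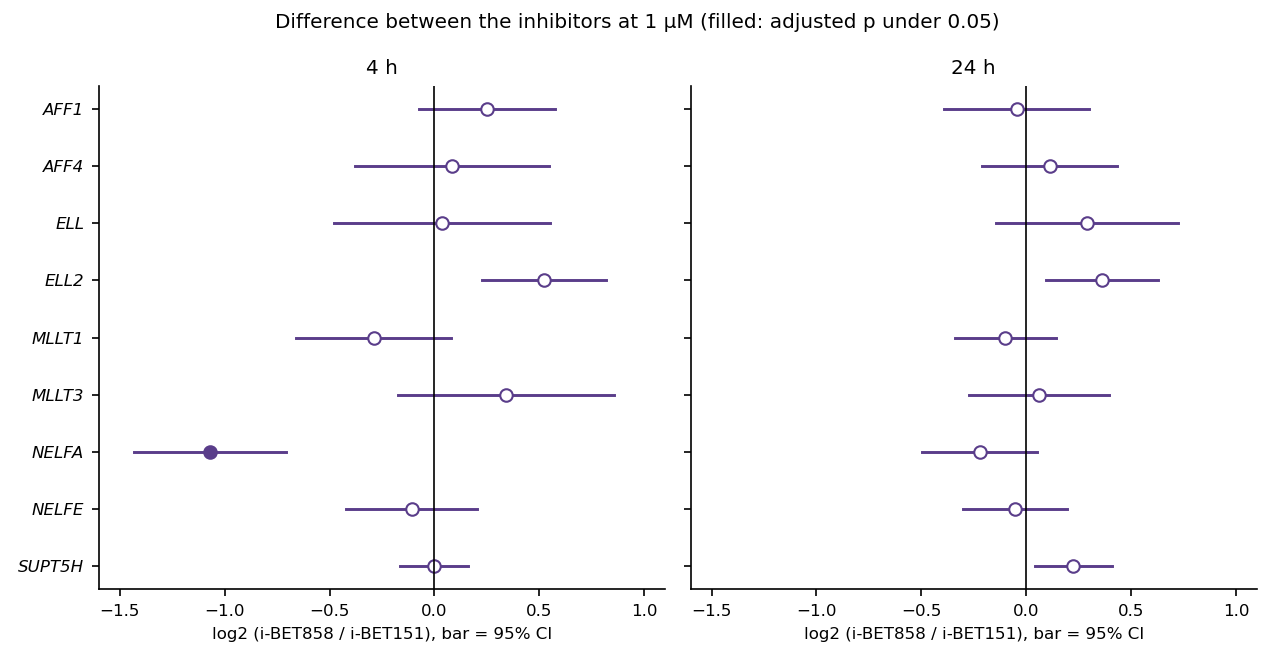
Log2 ratio of i-BET858 to i-BET151 (horizontal axes) for each gene at 4 h and 24 h, with its 95% confidence interval, filled where the adjusted p was under 0.05. NELFA at 4 h, at −1.07, is the filled point, and ELL2 lies right of 0 at both times.

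Whether an effect changed between 4 and 24 h was tested as the drug-by-time interaction over all 18 libraries. For i-BET858, 3 of 9 genes were called, against 27.2% of all genes. The effect on NELFA was higher at 24 h by 1.47 ± 0.20 on the log2 scale (adjusted p = 4.70e-05), that on MLLT1 by 0.73 ± 0.20 (adjusted p = 0.0113) and that on SUPT5H by 0.58 ± 0.11 (adjusted p = 7.13e-04). NELFA and MLLT1 thus came back towards DMSO, while SUPT5H moved away from it. For i-BET151, MLLT3 was the 1 of 9 called, 0.96 ± 0.29 (adjusted p = 0.0365), against 13.8% of all genes. That call was lost when any of 9 libraries was left out (adjusted p from 0.0506 to 0.118), namely DMSO replicates 1 and 2, i-BET151 replicates 1 and 3 and i-BET858 replicate 1 of 4 h and DMSO replicates 2 and 3 and i-BET151 replicates 1 and 2 of 24 h, and with total library size (0.0577) or only the groups compared (0.0624). A change of at least 2-fold was reached by 1 of 9 for i-BET858 and by 0 of 9 for i-BET151, where 15.1 and 6.70% of all genes reached it. With the replicate block AFF4 and MLLT3 passed as well for i-BET858 (adjusted p = 0.00454 and 0.00499) and AFF4, MLLT1, NELFA and SUPT5H for i-BET151 (0.0117, 0.0109, 0.00849 and 0.0115). For i-BET858, AFF4 and MLLT3 also passed without a filter on low counts (0.00593 and 0.0488) and in replicates 1 and 2 alone (0.0462 and 0.0497). AFF4 did so too with total library size (0.0444). Of 8 alternatives, 4 left AFF4 and 5 left MLLT3 not passing. With i-BET151, AFF4 passed without the filter (0.0304) and SUPT5H with DESeq2 (0.0363). NELFA with i-BET151 passed with total library size (0.0362) and in replicates 1 and 2 alone (0.0226). Leaving out a single library also let some of these pass. These were AFF4 with i-BET858 (0.0481 without i-BET858 replicate 2 of 24 h), AFF4 with i-BET151 (0.0428 without i-BET151 replicate 3 of 4 h), NELFA with i-BET151 (0.0141 without that library and 0.0434 without i-BET151 replicate 2 of 24 h) and SUPT5H with i-BET151 (0.0495 without DMSO replicate 1 of 24 h). The effect of i-BET858 on AFF1 did not differ detectably between the times (0.22 ± 0.22, adjusted p = 0.524). Between the DMSO groups AFF4 was lower at 24 h than at 4 h in 9 of 9 pairs of libraries but did not pass (−0.47 ± 0.19, adjusted p = 0.435).

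The other 72 genes of the elongation machinery were taken from lists of complexes. With i-BET858 31 of the 70 tested were called at 4 h, 12 up and 19 down, where 14.5% of all genes were called up and 16.3% down. At 24 h 31 of 71 were called, 21 up and 10 down, against 20.5 and 21.3% of all genes. With i-BET151 there were 18 of 70 at 4 h, 8 up and 10 down (7.81 and 8.43% of all genes), and 26 of 71 at 24 h, 18 up and 8 down (17.2 and 16.6%). Counts of these lists are descriptions to be read beside those shares. The median log2 fold change of these genes lay between −0.13 and 0.13 in the 4 comparisons. Of the 7 genes of P-TEFb and 7SK, 3 were called with i-BET858 at 4 h, 2 up and 1 down, and HEXIM1, the inhibitor of P-TEFb, rose most. HEXIM2, its paralogue, was at −0.72 ± 0.91 and did not pass.

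Among the polymerase subunits POLR2A, the catalytic one, rose with i-BET858 by 1.77 ± 0.24 at 4 h (adjusted p = 2.17e-04) and 1.42 ± 0.14 at 24 h (adjusted p = 2.36e-05). POLR2L rose at 24 h by 1.02 ± 0.15 (adjusted p = 2.87e-04), and in all 4 of the 12 subunits were called higher with i-BET858 at 4 h and 2 at 24 h, beside 14.5 and 20.5% of all genes. POLR2G and POLR2B were singled out after their values were seen. POLR2G was lower than DMSO in 9 of 9 pairs of libraries with i-BET858 at 24 h (−0.31 ± 0.12, adjusted p = 0.0533, and 0.0171 with the replicate block), and POLR2B was at −0.22 ± 0.13 at 4 h (adjusted p = 0.221, and 0.0281 with the block). In the PAF1 complex, a partner of elongating polymerase, CTR9 rose by 1.29 ± 0.12 and 1.31 ± 0.10 and RTF1 by 0.40 ± 0.11 and 0.79 ± 0.13 at 4 and 24 h. The subunit PAF1 had a lower mean with i-BET858 at 4 h, 638 ± 64.6 CPM (SD) against 815 ± 118 CPM with DMSO. At 24 h its mean was higher, 1085 ± 186 against 871 ± 168 CPM, and the groups overlapped at both times. Other elongation factors went down at 4 h, among them IWS1 by 1.15 ± 0.20 on the log2 scale (a log2 fold change of −1.15) and POLR2M, known as Gdown1, by 1.01 ± 0.15 (−1.01), and 5 of the 16 in that list fell with i-BET858 while 1 rose, beside 16.3 and 14.5% of all genes. At 24 h SUPT6H, a histone chaperone that travels with the polymerase, rose by 0.94 ± 0.12, and SSRP1, a subunit of FACT, fell by 0.91 ± 0.10 on the log2 scale with i-BET858.

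Of the other genes of the super elongation complex and its little relative, 4 of 6 were called with i-BET858 at 4 h, 1 up and 3 down, against 30.8% of all genes, and 3 of 7 at 24 h, against 41.7%. AFF2 rose with i-BET858 at 24 h by 1.34 ± 0.49 (adjusted p = 0.0473), and AFF3 did not pass (−0.96 ± 1.17). MLLT10, which joins MLLT1 or MLLT3 in the DOT1L complex, fell at 4 h, with log2 fold changes of −1.95 ± 0.28 for i-BET858 and −1.37 ± 0.28 for i-BET151 (adjusted p = 3.51e-04 and 0.00632). MLLT6 fell at 24 h with i-BET858 by 1.07 ± 0.23 on the log2 scale. BRD2, a BET gene, rose at both times with i-BET858 (1.33 ± 0.11 and 1.00 ± 0.16). In the Integrator complex, which ends transcription of paused polymerases, INTS14 fell in all 4 comparisons (−1.14 ± 0.14 and −1.46 ± 0.11 with i-BET858), INTS3 fell at 24 h by 1.04 ± 0.22 on the log2 scale and INTS15 rose by 1.18 ± 0.12. Of its 15 subunits, 6 fell and 1 rose with i-BET858 at 4 h, beside 16.3 and 14.5% of all genes. At 24 h 3 fell and 6 rose, beside 21.3 and 20.5%, and the difference between the times was not tested for the list.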

How the data were processed

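RNA of OVCAR-3 cells was measured in 18 libraries, grouped by the labels into 6 groups of 3 replicates. Per the study's methods, poly-A RNA was sequenced as paired-end reads, and STAR served the authors both to align to GRCh38 and to count the reads of each gene. What they deposited are raw counts that were not normalized. The annotation and the strand setting of the counting are not given in the sources used here. Time points were deposited as separate tables, told apart by the tables' own labels. Symbols, positions and exon lengths came from GENCODE 44 (99.4% of genes matched), and promoter sequences from RefSeq.

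The quasi-likelihood test of edgeR 4.0.16 (R 4.3.3) was run for each time point on its 3 groups together, after TMM scaling and the package's own filter against low counts. The change of an effect and DMSO over time were fitted on all 18 libraries. Genes were called at a Benjamini-Hochberg adjusted p under 0.05 over all genes tested. CPM were computed from TMM-scaled totals, and 95% confidence intervals from the fit's standard errors. Tested on simulated data, with pass criteria that were eased after the first run, edgeR missed a large share of 2-fold changes and most smaller ones, so a gene that did not pass may still have changed. The members and gene lists were chosen with earlier results of these data known. Genes of the other lists were named if called with a change of at least 2-fold in at least 1 comparison with DMSO, or if among the 2 largest changes of their list with i-BET858 at 24 h, and HEXIM1 in any case, as were the 3 genes most like the member with the largest change. Of the genes so chosen, 2 are not reported here. POLR2G, POLR2B and PAF1 fall outside this rule. SUPT5H's neighbours were looked at after its level was seen.

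Alternatives were DESeq2 1.42.0 (the study's own test, in the version used here), edgeR with those size factors or with total library size, no filter, at least 10 counts in every library, only the groups compared, all 18 libraries in 1 fit, each library left out, replicates 1 and 2 only, and the replicate number as a block. After the group means were removed, libraries of the same number correlated across genes by 0.125 to 0.344 at 4 h and by 0.145 to 0.330 at 24 h, whereas those of different numbers had medians of −0.204 and −0.232 but reached 0.216 and 0.285. Every correlation of the same number was above 0.1, and the numbers, which come from the labels, were used as the block. The ranges overlap, however, and replicate 3 stood apart in every group, which by itself can make correlations of the same number positive. The check thus cannot show that replicates 1 and 2 are paired by number.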

Additional observations from a re-analysis of the deposited data

Results flagged for a closer look

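The effect of an inhibitor differed between 4 and 24 h in 4 instances by the drug-by-time interaction (edgeR, 18 libraries). With i-BET858 the effect on NELFA was higher at 24 h by 1.47 on the log2 scale, that on MLLT1 by 0.73 and that on SUPT5H by 0.58. With i-BET151 the effect on MLLT3 was higher at 24 h by 0.96 (adjusted p = 0.0365), a call lost when any of 9 libraries was left out (adjusted p up to 0.118), with total library size (0.0577) and with only the groups compared (0.0624).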

How the results depend on the processing

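Over all reported log2 fold changes of the 9 genes and all alternatives, 1193 of 1310 values kept their direction and their side of the threshold, 45 passed where the first fit had not, 40 no longer passed and 32 changed sign. All 32 concerned differences that had not passed. The cause of these changes was not tested.

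Requiring at least 2-fold left 2 of the 9 genes with i-BET858 and 1 with i-BET151 at 4 h, 3 and 3 at 24 h, 1 and 0 for the change of the i-BET858 and i-BET151 effects, and 0 for DMSO over time. With the replicate block, 6 were called with i-BET151 at 4 h, 2 and 1 between the compounds at 4 and 24 h, and 5 and 5 for the changes of effect. The shares of all genes called rose with it, to 32.7%, 9.63 and 4.37%, and 38.3 and 25.2%. No other call of the 9 genes than those given in the report was altered by the replicate block. Between the compounds at 4 h, DESeq2 and the fit of all 18 libraries called 2 (4.43 and 3.02% of all genes), only the groups compared called 0 (and 0 of all 16520 genes), and leaving out a library gave 0 to 1. At 24 h replicates 1 and 2 only called 2 (7.29%). For the change of the i-BET858 effect, no filter and replicates 1 and 2 only gave 5 each (13.8 and 40.6%). For that of i-BET151, DESeq2, no filter and replicates 1 and 2 only gave 2 each (17.5, 7.40 and 26.3%), only the groups compared 0 (13.8%), and leaving out a library 0 to 2. DMSO over time gave 0 with DESeq2 size factors, total library size, at least 10 counts in every library and only the groups compared (0 to 0.0375% of all genes), and 0 to 1 with a library left out.

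The log2 differences that changed sign, or whose range with a library left out includes 0, are as follows. Against DMSO at 4 h, SUPT5H was at 0.00537 with i-BET858 and 0.00386 with i-BET151 with at least 10 counts in every library, and with replicates 1 and 2 only SUPT5H was at 0.0146 and MLLT3 at 0.027 with i-BET151. With total library size MLLT1 was at −0.0645 with i-BET858 at 24 h. Leaving out a library moved SUPT5H at 4 h between −0.0394 and 0.0122 with i-BET858 and between −0.031 and 0.0125 with i-BET151, MLLT3 between −0.215 and 0.168 and NELFE between −0.176 and 0.0391 with i-BET151 at 4 h, and ELL between −0.051 and 0.264 with i-BET151 at 24 h. Between the compounds at 4 h, total library size gave −0.0153 for AFF4 and −0.0651 for ELL. SUPT5H was there at 0.00384 with DESeq2, 0.00383 with its size factors and 0.00151 with at least 10 counts. Replicates 1 and 2 only gave 0.032 for AFF1 and 0.0133 for MLLT1 at 24 h, and −0.0395 for the change of the i-BET858 effect on AFF1. With a library left out, the difference between the compounds at 4 h lay between −0.0591 and 0.313 for AFF4, −0.179 and 0.273 for ELL and −0.030 and 0.0241 for SUPT5H. At 24 h it lay between −0.123 and 0.0469 for AFF1, −0.00143 and 0.264 for AFF4, −0.167 and 0.031 for MLLT1 and −0.143 and 0.026 for NELFE.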

Other observations

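SUPT5H lies among genes that were themselves highly expressed, which was noticed after its level was seen. Of the 59 other protein-coding genes of the RefSeq table whose left end lies within 1 Mb of that of SUPT5H on chromosome 19, 47 had a mean of at least 1 CPM over the 18 libraries. Their median level was 20.6 CPM per kilobase, against 4.58 over all 13931 genes ranked, and 23 of the 47 lay above the 90th percentile of that ranking. Unlike the neighbours, the ranked genes were chosen by level alone and not limited to protein-coding genes. The part of gene type in this contrast was not tested. RPS16, a ribosomal protein gene whose left end lies 12.4 kb to the left of that of SUPT5H, was at 2433 CPM per kilobase, and PAF1, of the PAF1 complex, at 296 CPM per kilobase, against 224 for SUPT5H. These are levels only, and no test was made.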
